A study of Homo sapiens with 3 samples.

Results

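The hnRNP and SR genes encode the 2 classical groups of RNA-binding proteins that steer splice-site choice. They were taken by symbol: protein-coding genes in GENCODE release 44 whose name begins with HNRNP, or is SRSF followed by a number. The rule found 39 genes among the 58302 counted, 27 of them hnRNP and 12 SR genes, and all 39 annotated members were in the files. RNA came from C4-2, a human prostate adenocarcinoma line derived from LNCaP, labelled wild type, in 3 replicate libraries of ribosome-depleted total RNA. The series set adenocarcinoma against neuroendocrine lines and depleted neuropilin-2 in the latter. Those other samples are not analysed here, so the account describes levels in 1 line and compares no conditions. The labels do not tie replicates to separate cultures, so a p-value here speaks for these libraries only, and differences between them may be technical.

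The hnRNP proteins coat newly made RNA and often repress the use of nearby exons. SR proteins carry RNA recognition motifs and a tail rich in arginine and serine, bind enhancers within exons and help to recruit U1 and U2AF. Both groups regulate their own RNAs, often by including an exon with an early stop codon that sends the transcript to nonsense-mediated decay. In prostate cancer cells, hnRNP A1 and SRSF1 have been linked to the splicing of truncated androgen receptor variants.

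The libraries held 47513470 to 51200272 reads assigned to genes. Markers went with the label of the line: all 8 prostate adenocarcinoma markers were detected, between 114 and 1440 TPM (the usual transcript abundance unit, reads scaled by exon length and library total). Of the 7 neuroendocrine markers 4 were detected, none above 2.53 TPM, with the neural RNA-binding gene ELAVL4 at 0 reads. Of 5 fibroblast and endothelial markers 1 was detected, PDGFRB at 1.17 ± 0.133 TPM, and none of 4 blood markers. COL1A2, CD3E and HBB had 0 reads, and a count of 0 allows up to 0.0631 CPM (reads scaled to library total alone) in the smallest library. Values below are mean ± SD over n = 3 libraries.

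Most of these splicing factor genes were abundant. Of the 39 members, 34 had at least 10 reads in every library, the limit for calling a gene detected, against 71.8% of all 19708 protein-coding genes. A mean of 1 TPM was reached by 33 members (62.7% of protein-coding genes) and a mean of 100 TPM by 16 members, 12 hnRNP and 4 SR genes (6.84% of protein-coding genes). Together the members took 0.852 ± 0.0223% of all assigned reads, of which the hnRNP genes took 0.690 ± 0.0182% and the SR genes 0.162 ± 0.00458%. On the log2(TPM + 0.1) scale, the hnRNP median was 6.38 ± 0.143 and the SR median 6.40 ± 0.0620, beside 2.46 ± 0.0336 for all protein-coding genes and 3.99 ± 0.0444 for the detected ones. SR minus hnRNP was 0.03, and it was −0.29 over detected genes alone and 0.37 with canonical transcript lengths (1 reference transcript a gene) in place of merged exons.

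**Figure D1:**
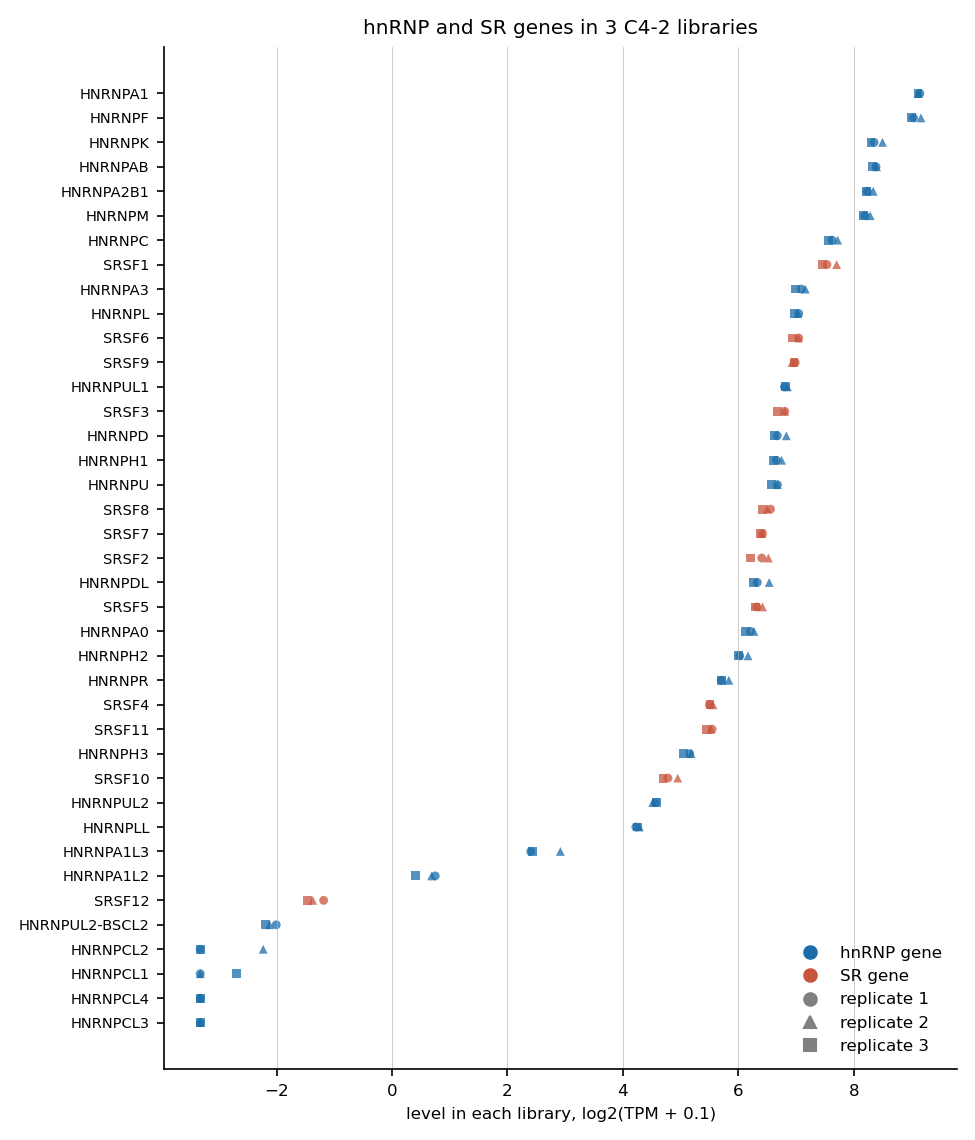
Level of each of the 39 members in each C4-2 library, as log2(TPM + 0.1) on the x axis, ordered by mean TPM, with hnRNP genes in blue, SR genes in red and a marker shape per replicate. From HNRNPA1 at 558 TPM to HNRNPLL at 19.0 TPM the levels form a graded series, and 8 members lie below 10 TPM.

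Ranges of many neighbours in the order overlapped. In the 38 steps between neighbours in the order of mean TPM, the ranges over the libraries overlapped in 20. HNRNPA1 and HNRNPF overlapped, and so did HNRNPK, HNRNPAB, HNRNPA2B1 and HNRNPM, each with the next. Within libraries, HNRNPA1 exceeded HNRNPF in 2 of 3, while HNRNPAB exceeded HNRNPA2B1, and HNRNPA2B1 exceeded HNRNPM, in 3 of 3. The ranges of HNRNPF and HNRNPK did not overlap, and neither did those of HNRNPM and HNRNPC or of SRSF1 and HNRNPA3.

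HNRNPA1 was the highest member. It encodes hnRNP A1, a shuttling repressor of exon inclusion, on chromosome 12 (54280193 to 54287088, plus strand, GRCh38), and it had 48380, 43561 and 47051 reads in replicates 1, 2 and 3. Its level was 566, 555 and 553 TPM, which puts it at percentile 99.3 among protein-coding genes. HNRNPA2B1, whose protein binds RNA sorting signals and methylated RNA, lay at 301, 323 and 298 TPM. HNRNPA1 exceeded it in every library, by 0.86 ± 0.0695 log2 units, a difference that shrank to 0.25 with canonical transcript lengths. HNRNPA3 lay at 136, 143 and 127 TPM and the intronless HNRNPA0 at 73.9, 77.1 and 69.6 TPM. HNRNPA2B1 thus exceeded HNRNPA3 by 1.19 ± 0.0447, and HNRNPA1 exceeded HNRNPA0 by 2.92 ± 0.0720 log2 units, with no overlap in either pair. With canonical lengths these differences were 2.16 and 3.36. Of the 100-base windows of coding sequence, 71.6% in HNRNPA3 and none in HNRNPA2B1 have an exact copy elsewhere in hg38. The counting dropped reads that mapped to several places, so the level of HNRNPA3 and its difference from HNRNPA2B1 are uncertain.

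The A1-like genes HNRNPA1L2 and HNRNPA1L3 are copies of HNRNPA1 that are annotated as coding. HNRNPA1L2 (chromosome 13, 52640786 to 52643796, plus strand) had 80, 70 and 62 reads and HNRNPA1L3 (chromosome 16, 51645756 to 51647132, plus strand) 120, 158 and 122 reads. That equals 1.44 ± 0.184 and 5.98 ± 1.27 TPM, and HNRNPA1 lay 8.51 ± 0.166 log2 units, or 364-fold, above HNRNPA1L2 (7.82 with canonical lengths). Their coding sequences are nearly the same as that of HNRNPA1: 945 of 960 aligned bases (98.4%) are identical in HNRNPA1L2 and 954 of 960 (99.4%) in HNRNPA1L3. The following 90 coding bases, read 5′ to 3′ from hg38, are the stretch within 1 HNRNPA1 exon where the 3 genes differ most. They are shown because, within the aligned coding sequence, only such bases tell reads of these genes apart. Capitals mark bases that differ from HNRNPA1 (chr12:54281797-54281886, plus strand; chr13:52642627-52642716, plus strand; chr16:51645952-51646041, plus strand).
HNRNPA1: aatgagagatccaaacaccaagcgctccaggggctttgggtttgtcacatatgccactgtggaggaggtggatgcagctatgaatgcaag
HNRNPA1L2: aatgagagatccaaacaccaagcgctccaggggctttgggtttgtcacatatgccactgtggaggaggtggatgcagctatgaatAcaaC
HNRNPA1L3: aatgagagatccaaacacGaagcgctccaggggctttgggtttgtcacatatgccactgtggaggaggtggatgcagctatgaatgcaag
Even here, HNRNPA1L2 differs at 2 bases and HNRNPA1L3 at 1.

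HNRNPA1 sequence recurs far beyond these copies. Of the 100-base windows along the coding sequence of its canonical transcript, 66.6% have an exact copy elsewhere in hg38, and of the 50-base windows 83.2%. GENCODE names 74 pseudogenes after HNRNPA1 in the files, 12 of which were detected, and together they held 905, 796 and 792 reads, 1.79% of the reads of HNRNPA1 itself. HNRNPA1P16 (chromosome 17, 2306761 to 2307715) held the most, at 162, 152 and 134 reads. The counting dropped reads that mapped to several places, so the levels of HNRNPA1 and its copies are uncertain. Adding the pseudogene reads to HNRNPA1 moved its difference from HNRNPA2B1 from 0.86 to 0.89.

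Few other members had as many repeats. In 8 members at least 20% of the 100-base coding windows had another copy: HNRNPA1, HNRNPA1L2, HNRNPA1L3, HNRNPA3 and the 4 HNRNPCL genes. HNRNPA3 reached 71.6%, so its level is uncertain too, and HNRNPC 19.7%. With 50-base windows the share was 93.6% in HNRNPA3, 58.2% in HNRNPC and 28.6% in HNRNPK, which had no repeated 100-base window. The pseudogenes of HNRNPA3, 16 in all, held 230, 134 and 143 reads, with HNRNPA3P9 highest at 113, 62 and 64. The 9 of HNRNPC held 183, 176 and 185 reads, 0.766% of those of HNRNPC, with HNRNPCP7 highest. Among SR genes only SRSF6 (14.4%) and SRSF8 (0.937%) had any repeated 100-base coding window. In 16 members, among them HNRNPA2B1, HNRNPF, HNRNPM and SRSF1, every 50-base coding window was single in the genome. Pseudogenes are named after 20 members, 134 in all, of which 24 were detected.

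**Figure D2:**
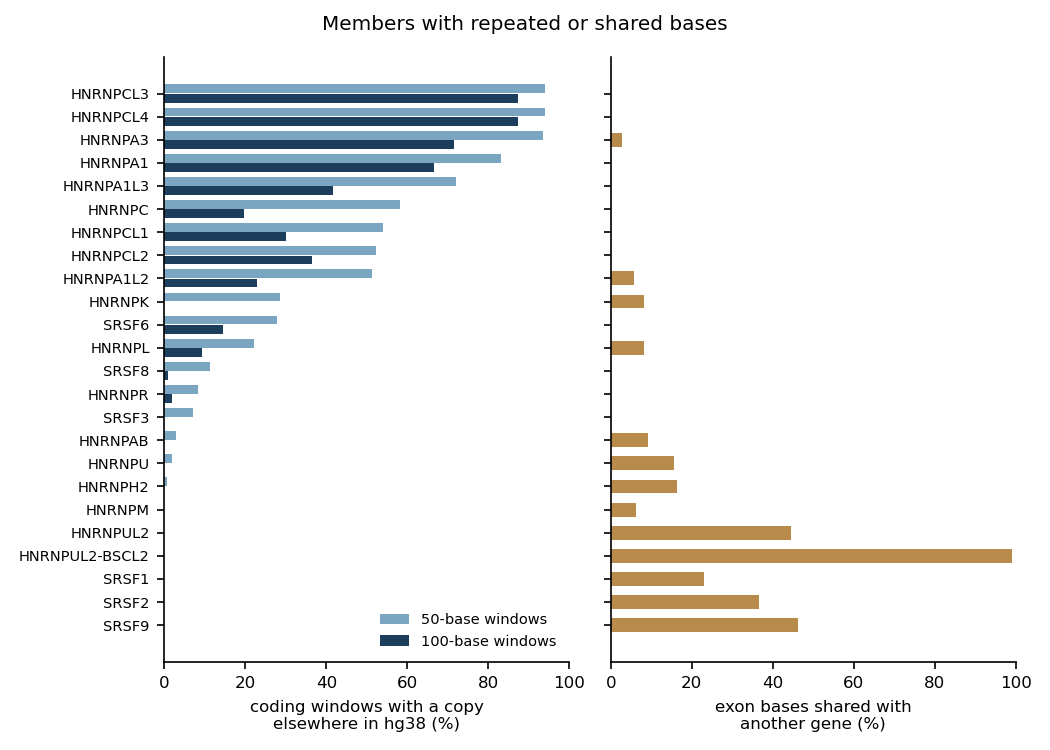
Members for which at least 5% of 50-base coding windows recur elsewhere in hg38 or at least 5% of exon bases are shared with another gene. Bars at left give the percent of coding windows with another exact copy, for 50-base and 100-base windows, and bars at right the percent of exon bases shared. HNRNPA1, HNRNPA3 and the HNRNPCL genes stand high at left, and HNRNPUL2-BSCL2, SRSF9, HNRNPUL2 and SRSF2 at right.

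HNRNPC was abundant and its copies had almost no reads. HNRNPC encodes the C1 and C2 proteins, which bind uridine tracts and measure RNA length in the nucleus, and it had 24197, 23723 and 23106 reads, or 199 ± 10.8 TPM (chromosome 14, 21209136 to 21269494, minus strand). HNRNPCL1 had 0, 0 and 1 reads and HNRNPCL2 0, 2 and 0. HNRNPCL3 and HNRNPCL4 had 0 reads in every library. The 4 copies lie on chromosome 1, and their reads are too few for a ratio to HNRNPC.

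The copies of HNRNPC have diverged from it more than the A1-like genes from HNRNPA1. HNRNPCL1 shares 94.7% of its 879 coding bases with HNRNPC and HNRNPCL4 93.1%, whereas HNRNPCL3 and HNRNPCL4 differ at 1 base. The 90 coding bases shown next are the stretch within 1 HNRNPC exon with the most variable positions, 14 in all, and show where reads of the copies could be told from HNRNPC reads. Capitals mark bases that differ from HNRNPC (chr14:21211477-21211566, minus strand; chr1:12847563-12847652, minus strand; chr1:13115674-13115763, minus strand; chr1:13061962-13062051, plus strand; chr1:13164741-13164830, minus strand).
HNRNPC: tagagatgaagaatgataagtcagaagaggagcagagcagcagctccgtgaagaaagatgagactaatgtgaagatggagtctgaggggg
HNRNPCL1: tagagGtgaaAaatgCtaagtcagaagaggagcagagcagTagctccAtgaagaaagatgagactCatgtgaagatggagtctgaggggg
HNRNPCL2: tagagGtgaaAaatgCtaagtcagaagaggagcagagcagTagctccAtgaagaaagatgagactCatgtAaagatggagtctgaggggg
HNRNPCL3: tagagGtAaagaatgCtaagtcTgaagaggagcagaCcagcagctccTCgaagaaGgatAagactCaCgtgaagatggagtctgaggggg
HNRNPCL4: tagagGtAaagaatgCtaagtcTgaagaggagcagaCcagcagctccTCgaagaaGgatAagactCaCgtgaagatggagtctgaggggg
In this stretch HNRNPCL3 and HNRNPCL4 have the same letters, with 11 differences from HNRNPC, and reads lying wholly in it could be placed at neither alone. For HNRNPCL3 and HNRNPCL4, 87.2% of 100-base coding windows have another copy, so their 0 reads say little. For HNRNPCL1 and HNRNPCL2 the share is 30.1% and 36.5% of 100-base windows, and 54.1% and 52.3% of 50-base windows.

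HNRNPF led its family. HNRNPF and HNRNPH1 encode proteins that bind runs of guanines, and HNRNPF lay at 525, 573 and 513 TPM against 101, 107 and 97.7 TPM for HNRNPH1. HNRNPF exceeded HNRNPH1 by 2.40 ± 0.0185 log2 units with the exon length used for counting, and by 0.66 with canonical transcript lengths. HNRNPH1 has 9480 merged exon bases and a canonical transcript of 2240. HNRNPH2, on the X chromosome, lay at 65.0, 71.8 and 63.8 TPM and HNRNPH3 at 35.6, 36.2 and 33.1 TPM. HNRNPH1 lay above both in every library, by 0.61 ± 0.0263 and 1.54 ± 0.0364, or by 2.73 and 2.43 with canonical lengths. HNRNPH2 shares 16.3% of its exon bases with the gene RPL36A-HNRNPH2. Over unshared bases HNRNPH1 lay above HNRNPH2 by 0.35 and above HNRNPH3 by 1.51.

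HNRNPAB was the highest of the D family. HNRNPD, which encodes the AU-rich element binding protein AUF1, lay at 102, 114 and 98.4 TPM and its neighbour on chromosome 4, HNRNPDL, at 80.3, 92.6 and 76.6 TPM. HNRNPD was higher in every library, by 0.33 ± 0.0338 log2 units (1.19 with canonical lengths), and the ranges of the genes did not overlap. HNRNPAB lay at 334, 336 and 321 TPM. HNRNPD minus HNRNPAB was −1.66 ± 0.0839, or −0.75 with canonical lengths.

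HNRNPK and HNRNPM have no close relative among the members. HNRNPK, which encodes a cytidine-rich RNA-binding protein with KH domains, lay at 327, 361 and 314 TPM. HNRNPM lay at 293, 312 and 288 TPM. With 28049, 28462 and 26846 reads for HNRNPK and 27581, 26942 and 27006 for HNRNPM, both ranked among the 6 highest members.

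HNRNPL was well above HNRNPLL. Both encode proteins that bind CA-rich RNA, the second known for switching CD45 splicing in lymphocytes, and they lay at 132, 131 and 125 TPM and at 18.6, 19.4 and 18.9 TPM. The difference was 2.76 ± 0.0549 log2 units, and 3.92 with canonical lengths. HNRNPR lay at 52.0, 57.0 and 52.0 TPM, below its relative SYNCRIP (hnRNP Q) at 78.5, 83.3 and 71.5 TPM (77.8 ± 5.96). The difference of −0.53 ± 0.0697 widened to −1.94 with canonical lengths.

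HNRNPU, which encodes the scaffold attachment factor of nuclear chromatin, had the third highest read number among members and only a middle TPM. Its 38626, 35462 and 35903 reads equalled 102, 102 and 95.5 TPM over 22512 merged exon bases, of which 15.6% also belong to COX20. HNRNPUL1, which acts in the DNA damage response, lay at 111, 115 and 113 TPM. The difference of HNRNPU minus HNRNPUL1 was −0.18 ± 0.0584 with merged exons and 0.80 with canonical lengths, so no order of these 2 genes is given. HNRNPUL2 lay at 23.6, 22.8 and 23.8 TPM, 2.27 ± 0.0557 log2 units under HNRNPUL1. The readthrough gene HNRNPUL2-BSCL2 covers 44.5% of its exon bases, and over unshared bases alone the difference was 1.47, and with canonical lengths 2.98. HNRNPUL2-BSCL2 itself, whose exon bases are 99.1% shared, had 10, 8 and 8 reads and was not detected. The counting dropped reads that overlap several genes, so few of its bases could collect reads and its count says little.

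SRSF1 was the highest SR gene with merged exon lengths. It encodes the prototype SR protein and was at 185, 208 and 175 TPM, from 10394, 10709 and 9787 reads (chromosome 17, 58003360 to 58007346, minus strand). Its relative SRSF9 lay at 127, 122 and 125 TPM, and SRSF1 was higher in every library, by 0.60 ± 0.148 log2 units. This order turned to −1.77 with canonical lengths. The canonical SRSF1 transcript, at 5343 bases, is longer than the 3340 exon bases that were counted. With its length held to the counted bases the difference was −1.09. SRSF9 has 3744 counted bases, a canonical transcript of 1152 and 46.2% of exon bases shared with GATC, and over unshared bases the difference was 0.09. SRSF1 shares 23.1% of exon bases with unnamed genes. In all, 5 members (12.8%) share at least 20% of their exon bases, beside 11.6% of protein-coding genes.

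SRSF6, SRSF5 and SRSF4 encode SR proteins with 2 RNA recognition motifs. SRSF6 lay at 132, 132 and 122 TPM, SRSF5 at 79.9, 85.5 and 78.6, and SRSF4 at 45.1, 47.1 and 45.4. SRSF4 was below SRSF5 by −0.82 ± 0.0343 log2 units, and by −0.71 with canonical lengths. SRSF5 was below SRSF6 with merged exons (−0.66 ± 0.0532) and above it with canonical lengths (1.10). SRSF5 has 8 annotated transcripts with a retained intron, and its merged exons, at 5357 bases, are 3.58 times as long as its canonical transcript.

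SRSF3 and SRSF7, the SR proteins that link splicing to export of mRNA through NXF1, lay close together. SRSF3 was at 112, 112 and 102 TPM from 13338, 12227 and 12134 reads, and SRSF7 at 85.5, 84.8 and 83.1 TPM from 5809, 5285 and 5614 reads. The difference of 0.36 ± 0.0537 log2 units had the same sign in every library and was 0.33 with canonical lengths.

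SRSF2, which binds both guanine-rich and cytosine-rich exonic enhancers, and its retrogene relative SRSF8 were not separated. SRSF2 lay at 84.7, 91.7 and 74.3 TPM and SRSF8 at 94.1, 90.6 and 85.6 TPM. The difference was −0.11 ± 0.115 log2 units and had 1 sign in only 2 of 3 libraries (exact sign-flip permutation p = 0.5). Of the exon bases of SRSF2, 36.7% lie in other genes, mainly MFSD11, and the difference was 0.55 over unshared bases and 0.66 with canonical lengths.

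SRSF10 and SRSF12 differed most among the SR pairs. SRSF10, a splicing repressor when dephosphorylated by heat shock, lay at 27.4, 30.8 and 25.8 TPM. SRSF12 had 26, 20 and 20 reads, or 0.340, 0.286 and 0.263 TPM (percentile 28.9 among protein-coding genes), and was the only SR gene under 1 TPM. The difference was 6.15 ± 0.179 log2 units, and 4.48 with 1 TPM added. SRSF11, with a single RNA recognition motif, lay at 46.6, 46.0 and 43.4 TPM.

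In all, 20 pairs of related genes were compared within libraries. In 19 the difference had the same sign in 3 of 3 libraries, with an exact two-sided sign-flip permutation p of 0.25 (0.263 after Benjamini-Hochberg adjustment over the pairs). This is the smallest p that 3 libraries allow, so no pair could pass 0.05. In 10 pairs the difference was larger than 1 log2 unit. The 19 and the 10 pairs include HNRNPC and HNRNPCL1, where HNRNPCL1 had 0, 0 and 1 reads, too few for a ratio. They also include HNRNPA1 and HNRNPA1L2, whose levels are uncertain. In 4 pairs the difference changed sign with canonical transcript lengths: HNRNPU and HNRNPUL1, SRSF1 and SRSF9, SRSF2 and SRSF8, and SRSF5 and SRSF6.

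**Figure D3:**
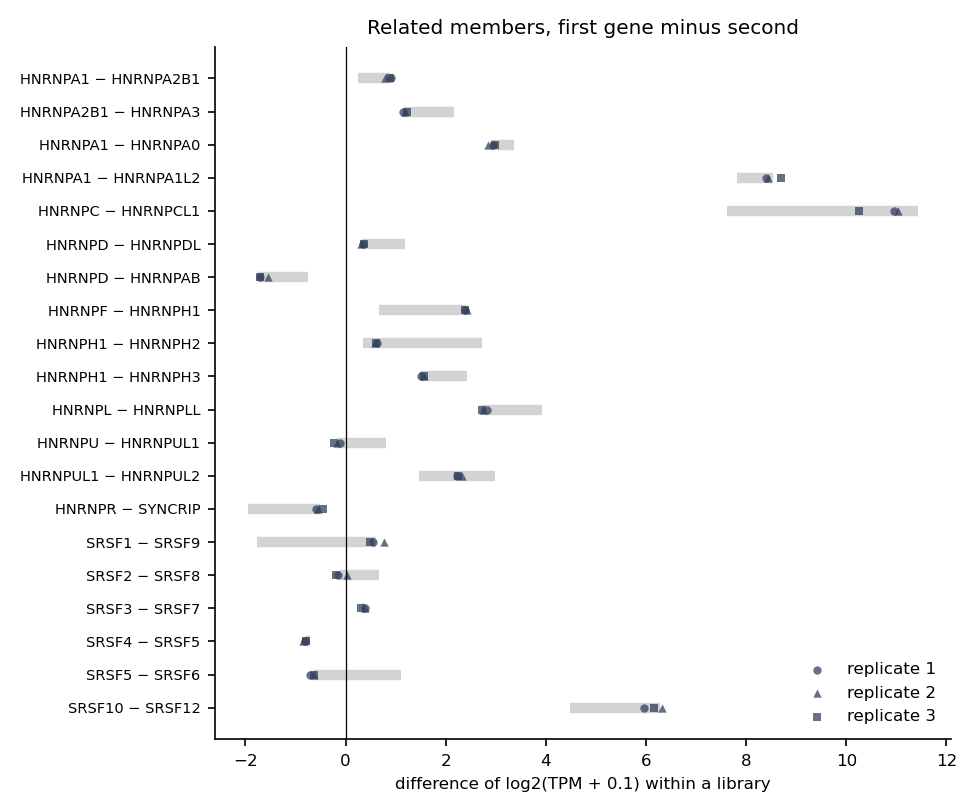
Difference of log2(TPM + 0.1) between related genes within each library, first gene minus second, for 20 pairs. Points are libraries, with a marker shape per replicate, grey bars span the mean differences under the alternative lengths, pseudocounts and denominators, and the vertical line marks 0. Library points lie close together in most pairs, while grey bars cross 0 for 4 pairs, among them SRSF1 and SRSF9 (0.60 with merged exons, −1.77 with canonical lengths).

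The length used moved the levels of several members. The ratio of merged exon bases to the canonical transcript was at least 2 in 13 of 39 members (33.3%), beside 17.2% of all protein-coding genes and 21.2% of those with at least 10 TPM. It reached 4.23 in HNRNPH1, 3.87 in SRSF4, 3.58 in SRSF5, 3.28 in HNRNPU, 3.25 in SRSF9 and 3.18 in HNRNPL. With canonical lengths 9 members moved by 5 or more places in the order. HNRNPH1 went from rank 16 to 7 and SRSF5 from 22 to 12, whereas SRSF1 went from 8 to 21. HNRNPA1 and HNRNPF stayed in the first places, at 503 ± 5.30 and 450.5 ± 26.3 TPM. In 8 members the canonical transcript is longer than the counted exons, so reads from the added part were not in the files.

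**Figure D4:**
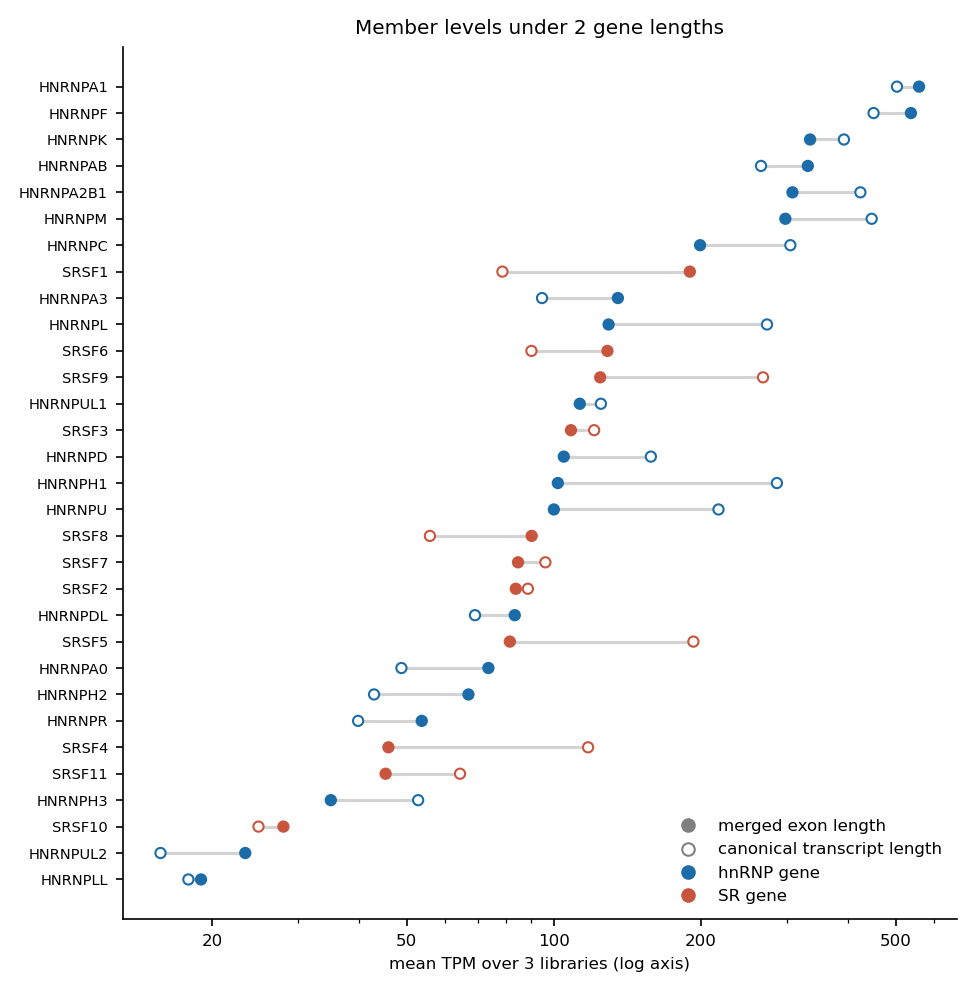
Mean TPM of the 31 members with at least 10 TPM, on a log axis, with the merged exon length of the counts (filled) and with the length of the canonical transcript (open), hnRNP genes in blue and SR genes in red. HNRNPH1 moves from 102 to 286 TPM and SRSF5 from 81.3 to 193, while SRSF1 moves from 190 to 78.5.

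The share of genes with an annotated decay transcript was larger among SR genes than among hnRNP genes. In GENCODE release 44 all 12 SR genes and 15 of 27 hnRNP genes have at least 1 transcript marked for nonsense-mediated decay, beside 39.1% of all protein-coding genes and 48.9% of those with at least 10 TPM. HNRNPA2B1 has 35 such transcripts, HNRNPA1 18, HNRNPU 9 and HNRNPH1 8, whereas HNRNPF, HNRNPAB, HNRNPA0, HNRNPH2 and HNRNPH3 have none. Of the hnRNP genes under 10 TPM, only HNRNPUL2-BSCL2 has 1. These shares count genes and not transcripts. The median number of annotated transcripts of any kind was 11 in hnRNP genes and 10 in SR genes, beside 8 in protein-coding genes with at least 10 TPM. A retained-intron transcript is annotated for 10 of 12 SR genes and 15 of 27 hnRNP genes, and HNRNPH1 has 19. Over all members this is 64.1%, and over the hnRNP genes 55.6%, beside 48.9% of all protein-coding genes. Of protein-coding genes with at least 10 TPM it is 62.7%, a limit that not all members reach. All 15 of these hnRNP genes are among the 20 hnRNP genes with at least 10 TPM. Counts summed over a gene cannot show which share of its RNA came from these isoforms.

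CpG numbers in the start regions of the members were near those of expressed genes. RefSeq promoters (GRCh38.p14, 250 bases before to 50 after the start) were matched for 35 members. HNRNPA1 and SRSF2 were among those without a match. The 29 with at least 10 TPM held a median of 30 CpG, beside 27 in all protein-coding genes at that level. SRSF8 held 3, HNRNPH1 11, HNRNPC 15 and SRSF7 17, while SRSF4 held 48. HNRNPCL1, HNRNPCL2 and HNRNPCL4 held 4, 6 and 4, whereas the low SRSF12 held 37. Exact matches on either strand to CCAAT were in 15 of the 29 (51.7%, beside 38.6% of expressed genes), to TATAAA in 5 (17.2%, beside 4.79%), to GGGCGG in 19 (65.5%, beside 73.4%) and to CACGTG in 7 (24.1%, beside 11.2%). The TATAAA matches were in HNRNPAB, HNRNPC, HNRNPD, SRSF3 and SRSF11. These are matches of letters and not binding sites, and none was tested.

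Members varied little between libraries, though many differed by more than counting noise. For members with a mean of at least 1000 reads, 31 in all, the median coefficient of variation of CPM, scaled by trimmed mean of M values (TMM), was 2.64%, beside 4.09% for 7943 protein-coding genes of that depth. A chi-square test of the 3 counts, with Benjamini-Hochberg adjustment over 21039 detected genes, called 25 of 34 detected members, 18 hnRNP and 7 SR genes. Of all detected genes 46.1% were called. Of the 31 members with at least 1000 reads 24 (77.4%) were called, beside 62.6% of the protein-coding genes of that depth, which had a median of 3111 reads against 10296 for the members. Each mate was counted by itself, and whether reads were paired is not given in the sources used here. For paired reads the statistic should be halved, and it then called 15 of the 31 (48.4%), beside 33.3% of genes of that depth.

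Replicate 2 stood highest for most members that varied. Of the 25 members called, 16 were highest in replicate 2 and 14 lowest in replicate 3, while of 4974 called protein-coding genes with at least 1000 reads 36.0% were highest in replicate 2 and 1821 lowest in replicate 3. HNRNPDL lay at 144.7, 162.9 and 141.6 TMM-scaled CPM in replicates 1, 2 and 3, and SRSF10 at 92.7, 101.5 and 89.5. SRSF1 lay at 203.6, 223.3 and 198.0 and SRSF2 at 84.1, 88.8 and 75.7. These 4 genes, with HNRNPD and HNRNPK, were 5.60% to 8.79% above their means in replicate 2. By the chi-square test the Benjamini-Hochberg adjusted p was 1.59e-17 for HNRNPDL and 7.86e-17 for SRSF1, and 3.32e-08 and 7.16e-08 with the statistic halved. HNRNPA1 went the other way, at 947.8, 908.2 and 951.6, and HNRNPUL2 and SRSF9 were also lowest in replicate 2, at −5.0% and −4.5% from their means. HNRNPAB, SRSF7, SRSF4 and HNRNPLL were not called, and HNRNPAB varied by 0.887%. Without replicate 2, 8 members were called, against 20 without replicate 1 and 20 without replicate 3. Of 21039 detected genes, 5201 were called without replicate 2, 7096 without replicate 1 and 5180 without replicate 3. Replicate 2 was also the smallest library, at 47513470 reads, and the part of depth in these differences was not tested.

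**Figure D5:**
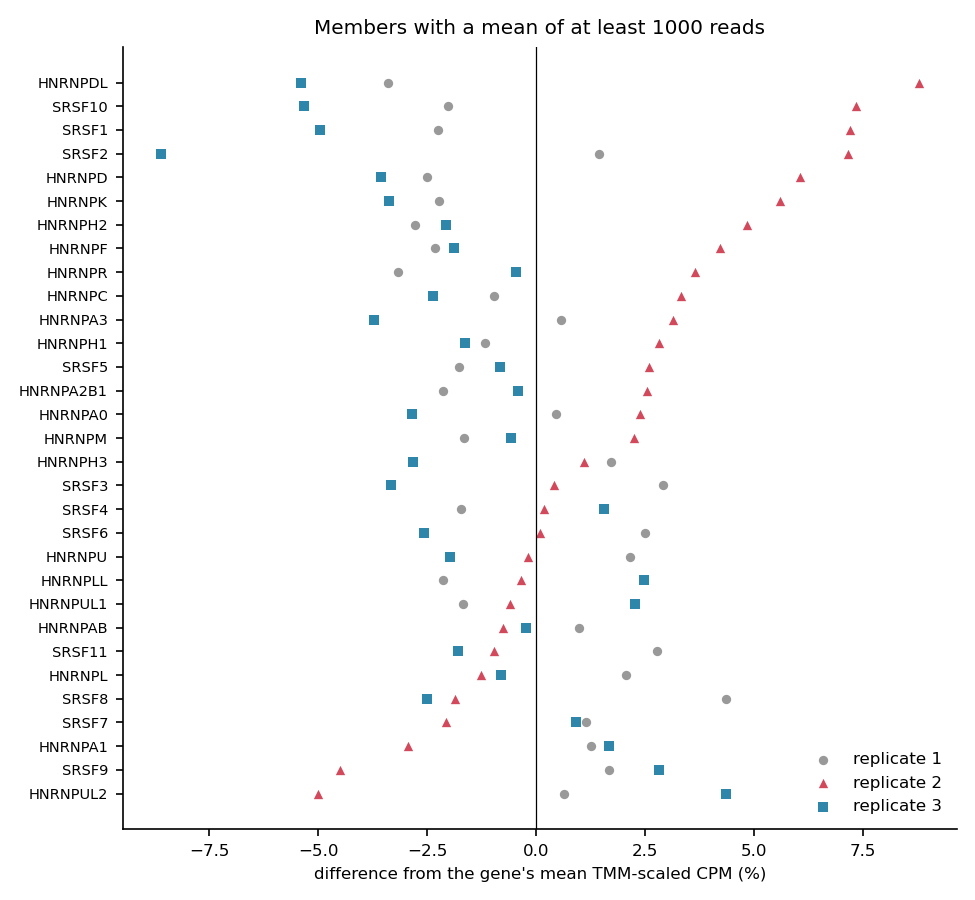
Difference of each library from the gene's mean, in percent of TMM-scaled CPM, for the 31 members with a mean of at least 1000 reads, ordered by replicate 2. HNRNPDL at the top is 8.79% above its mean in replicate 2, HNRNPUL2 at the bottom is at −5.0%, and the points run from −8.62% to 8.79%.

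Genes that work beside the members were all detected. The 7 hnRNP proteins under other symbols ranged from PCBP2 at 53.3 ± 2.69 TPM to the polypyrimidine tract binding gene PTBP1 at 258 ± 5.33, followed by PCBP1 at 160 ± 7.91 and RBMX at 102 ± 4.93. Their median of 6.41 ± 0.0204 on the log2(TPM + 0.1) scale was near those of the members. The 20 SR-related genes had a median of 5.70 ± 0.0223 and were led by U2AF2 (281 ± 8.31 TPM), SRRM2 (200 ± 8.72) and THRAP3 (195 ± 5.20). U2AF1 was lowest at 2.64 ± 0.373 TPM, but GRCh38 holds a near-identical copy of it, so its value is uncertain.

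The listed SR kinases and nuclear import receptors, not all of them receptors for SR proteins, had a lower median than the SR genes. The median over 12 SR kinases and import receptors was 5.32 ± 0.101 on the same scale, beside 6.40 ± 0.0620 for the SR genes, a description over lists with no test. TNPO2 led at 121 ± 1.95 TPM, followed by TNPO3, the import receptor for SR proteins, at 104 ± 2.76 and the kinase gene SRPK1 at 70.8 ± 3.80. SRPK3 was the lowest, at 3.16 ± 0.603. The 28 core spliceosome genes ranged from 24.9 TPM upwards with a median of 6.78 ± 0.0300, led by SNRPB at 445 ± 13.5, SF3B5 at 431 ± 17.3 and SNRPD2 at 285 ± 3.67 TPM. The 10 genes of nonsense-mediated decay ranged from 7.99 TPM upwards with a median of 4.58 ± 0.0652, with SMG5 at 120 ± 3.16 and UPF1 at 87.4 ± 1.69 TPM.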

How the data were processed

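Ribosome-depleted total RNA from 3 C4-2 libraries was sequenced from strand-specific libraries, per the labels' protocols. The authors deposited gene-level read counts, not normalized, which featureCounts 1.6.3 made over the exons of Ensembl release 90 (GRCh38), per the file headers. The recorded options leave strand unused, count each mate by itself and drop reads that map to several places or overlap several genes. STAR 2.7.0f and Trim Galore are named in the submitters' processing notes. The deposited merged exon length of each gene was used to compute TPM. Other lengths were the MANE Select or Ensembl canonical transcript of GENCODE release 44, which matched 98.7% of identifiers. The members and lists were chosen with earlier results of these data known.

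Repeats were counted as exact 50-base or 100-base windows of canonical transcripts found in hg38 (main chromosomes, both strands) outside the gene's own locus. Read length is not given in the sources used here, and windows with mismatches were not searched. Shared bases are exon bases covered by another gene on either strand. TMM factors came from edgeR 4.0.16 and size factors from DESeq2 1.42.0 (R 4.3.3), and other steps used Python 3.11.15, scipy 1.17.1 and matplotlib 3.10.9. The chi-square test was tested on data simulated with counting noise alone. That simulation cannot show how often genes with a wider spread between libraries are called. Values in every library were given for the 6 highest hnRNP and the 6 highest SR members, both genes of each related pair, members under 10 reads in any library, members called by the chi-square test and members with at least 20% of exon bases shared. Of the related lists the highest members were named, up to 3 a list, and for some the lowest, chosen after its value was seen. Some items are not reported here. Limits from reads cover counting error only. Protein sequences are not used here.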

Additional observations from a re-analysis of the deposited data

How the results depend on the processing

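Canonical transcript length moved the hnRNP median to 6.11, the SR median to 6.48 and their difference, SR minus hnRNP, to 0.37. With that length held to the counted exon bases, chosen after seeing the data as was the length of unshared bases, they were 6.10, 6.54 and 0.45. TPM over nuclear protein-coding genes gave 6.98 and 7.01, while the median of all protein-coding genes went from 2.46 to 3.06. Among detected genes only, the hnRNP median was 6.69 and the difference turned to −0.29, since only hnRNP genes were left out. Leaving out 1 library gave 6.30 to 6.43 for hnRNP genes, 6.38 to 6.44 for SR genes, 0.00 to 0.08 for the difference, 34 detected members and 14 pairs with the first gene higher. The count of members that varied between libraries was 15 with the statistic halved, 26 with DESeq2 size factors, and 8 to 20 without 1 library. It was 8 without replicate 2 and 20 without replicate 1 or without replicate 3. Over all detected genes the counts without replicate 2 and without replicate 3 were 5201 and 5180. The reason for the lower count of members was not tested.

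Of 180 alternative values of pair differences 170 kept their direction, among them those of HNRNPC minus HNRNPCL1, which has too few reads for a ratio. HNRNPU minus HNRNPUL1 turned to 0.80 with canonical lengths, capped or not, and to 0.02 over unshared bases. SRSF1 minus SRSF9 turned to −1.77 (−1.09 capped). SRSF2 minus SRSF8 turned to 0.66 (0.56 capped, 0.55 unshared). SRSF5 minus SRSF6 turned to 1.10 in both. These 10 values differ from the main ones only in the lengths they divide by. No paired comparison of samples between groups was possible because all samples are of 1 group.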
